A study of Mus musculus with 15 samples.

Results

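The let-7 hairpins each give 2 mature arms, and the 8 passenger arms described here are the listed 3p arms of let-7a-1, let-7a-2, let-7b, let-7c-1, let-7c-2, let-7d, let-7f-2 and let-7i. They were taken by name from the tables of Kupffer cell miRNAs, in which they are 8 of 248 mature miRNAs and 8 of 126 listed 3p arms. The arm of let-7e was left out by the same naming rule, let-7g-3p is listed but is not among the 8, and let-7f-1-3p is not listed. Small RNA was sequenced in 15 libraries from Kupffer cells, the macrophages that reside in liver sinusoids. Libraries from ob/ob mice, an obese strain without functional leptin, numbered 3 at 9 weeks and 4 at 14 weeks. Those of C57BL/6J mice, called wt, numbered 4 at each age. The labels do not say that the replicates came from separate animals or how the cells were purified, so the p-values below speak of the scatter of these libraries alone, and that scatter may be technical.

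A let-7 hairpin is cut by Dicer into a short duplex, and one strand of it is loaded into an Argonaute protein while the other is mostly degraded. For let-7 the 5p arm is the guide strand that represses targets such as Lin28, Hmga2 and Ras transcripts, and the 3p arm is the passenger strand. A miRNA finds its targets mainly through its seed, bases 2 to 8 from the 5′ end, so the 2 arms of a hairpin have different seeds and differ in the transcripts that they could pair with.

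The 8 passenger arms are shown because most have a seed of their own and because 2 of the names stand for the same letters. Each runs 5′ to 3′ with its seed in capitals, from RefSeq on GRCm38.p6, and mmu- is the prefix for mouse, dropped in the rest of the text.
mmu-let-7a-1-3p: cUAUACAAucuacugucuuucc
mmu-let-7c-2-3p: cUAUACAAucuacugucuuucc
mmu-let-7b-3p: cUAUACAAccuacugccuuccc
mmu-let-7f-2-3p: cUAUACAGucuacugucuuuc
mmu-let-7d-3p: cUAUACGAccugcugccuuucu
mmu-let-7c-1-3p: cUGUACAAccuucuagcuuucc
mmu-let-7a-2-3p: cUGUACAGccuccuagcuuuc
mmu-let-7i-3p: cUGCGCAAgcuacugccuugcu

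The 3p arms of let-7a-1, let-7b and let-7c-2 share the seed UAUACAA, and the other 5 arms have 5 further seeds. Over the first 21 bases, 11 positions are the same in all 8 arms. Counting positions from 1 at the 5′ end, let-7d-3p departs from let-7a-1-3p by A7G, U9C, A12G and U16C, the first of which lies in the seed. The 5p arms of the same hairpins all carry the seed GAGGUAG. The guide strand of let-7d, whose first base differs from that of the other 5p arms of these hairpins, and that of let-7i are printed for comparison, again with the seed in capitals.
mmu-let-7d-5p: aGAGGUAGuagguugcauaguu
mmu-let-7i-5p: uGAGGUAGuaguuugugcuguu

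The mature 3p sequences of let-7a-1 and let-7c-2 are identical over all 22 bases, although they come from different chromosomes. Their hairpins are shown because these differ on both sides of the shared 3p arm, which is in capitals.
let-7a-1 hairpin: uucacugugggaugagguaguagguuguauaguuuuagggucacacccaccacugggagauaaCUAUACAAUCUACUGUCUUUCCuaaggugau
let-7c-2 hairpin: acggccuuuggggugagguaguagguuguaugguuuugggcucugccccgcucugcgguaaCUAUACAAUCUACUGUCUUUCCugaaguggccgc

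The genes lie in 6 regions on 6 chromosomes of GRCm38, by GENCODE annotation. The arms of let-7a-1 (chr13:48538188-48538209) and let-7d (chr13:48536024-48536045) lie on the minus strand, 2065 bases apart by their hairpins, in an exon of the long non-coding RNA gene 6720427I07Rik. The arms of let-7c-2 (chr15:85706664-85706685) and let-7b (chr15:85707379-85707400) lie on the plus strand in an exon of Lncppara. That of let-7c-1 (chr16:77599717-77599738) is in an intron of Mir99ahg, and that of let-7a-2 (chr9:41536777-41536797) is in introns of 3110039I08Rik and Gm49317. The arm of let-7f-2 (chrX:151912403-151912423) is in an intron of Huwe1, a ubiquitin ligase gene, and that of let-7i (chr10:122985642-122985663) is in an exon of the transcribed pseudogene D630033A02Rik.

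Levels are in RPM, the reads of a miRNA per 1000000 reads of its library, with M for 1000000 below. If the unit is RPM, the worth of 1 read implied 25.9 to 33.9 M reads in ob/ob and 13.4 to 22.8 M in wt at 9 weeks, and 44.0 to 98.1 M in ob/ob and 9.08 to 39.0 M in wt at 14 weeks, so ob/ob was then deeper at both ages with no overlap. Reads of the 248 miRNAs alone overlapped at 9 weeks, at 6.48 to 8.37 M in ob/ob and 4.19 to 8.16 M in wt. At 14 weeks they did not, at 14.1 to 32.1 M in ob/ob and 1.34 to 12.4 M in wt. The library of wt replicate 1 at 14 weeks stood apart, with 9.08 M reads and a sum of 147387 RPM over the 248 miRNAs. At 9 weeks the sum over the 248 was 230785 to 250422 RPM in ob/ob and 297668 to 358621 RPM in wt, without overlap. At 14 weeks it overlapped, at 272978 to 333502 RPM in ob/ob and 147387 to 353829 RPM in wt. Of 5 myeloid markers 3 were listed, summing to 2139 to 3272 RPM in ob/ob and 3144 to 4465 RPM in wt at 9 weeks, and to 2386 to 4026 RPM in ob/ob and 1833 to 2917 RPM in wt at 14 weeks. Of these, miR-142a-3p was listed at 0 in at least 1 library of every group except ob/ob at 14 weeks. The 4 hepatocyte markers summed to 3966 to 5524 RPM in ob/ob and 1100 to 2222 RPM in wt at 9 weeks, and to 3169 to 6899 RPM in ob/ob and 1099 to 1689 RPM in wt at 14 weeks. These sums are mostly miR-192-5p, which averaged 3055 RPM over the 15 libraries, against 72.7 RPM for miR-122-5p and 0.475 RPM for miR-122-3p. The limma test described below gave miR-192-5p a log2 difference, ob/ob minus wt, of 1.57 at 9 weeks (limma adjusted p = 0.00529). At 14 weeks it was 1.94 (0.00256). For miR-122-5p the 2 ages gave 2.02 (0.0244) and 0.57 (0.551), and for miR-194-5p 0.43 (0.195) and 0.79 (0.0352). The erythroid miR-144-5p, the listed one of 2 erythroid markers, was at 14.7 to 21.7 RPM in ob/ob and 0.522 to 1.49 RPM in wt at 9 weeks, and at 11.6 to 32.4 RPM in ob/ob and 0.331 to 0.974 RPM in wt at 14 weeks. The 2 lymphocyte markers summed to 4854 to 6633 RPM in ob/ob and 7298 to 7533 RPM in wt at 9 weeks and overlapped between genotypes at 14 weeks, and the sums of endothelial, mesenchymal and biliary markers overlapped at both ages. The lymphocyte sum is mostly miR-181a-5p, which averaged 6535 RPM over the 15 libraries, against 198 RPM for miR-150-5p. At 9 weeks their log2 differences were -0.40 (limma adjusted p = 0.0852) and -0.45 (0.239). The part of depth, of the sum over the 248 miRNAs and of these markers in the differences below was not tested. In such bulk libraries, fewer cells of a type and less RNA per cell cannot be told apart.

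let-7d-3p was the abundant passenger arm of the set and the other 7 were rare. It averaged 429.1 RPM over the 15 libraries, the 41st highest mean of the 248 miRNAs, and made up 93.1 to 99.1% of the summed level of the 8 arms in every library. The other 7 arms together summed to 3.52 to 15.05 RPM. let-7c-2-3p, let-7i-3p and let-7a-1-3p followed with means of 3.16, 2.98 and 2.03 RPM, which are neighbours within the range of each other: 0.991 to 6.11 RPM for let-7c-2-3p, 1.32 to 4.62 RPM for let-7i-3p and 0.991 to 3.72 RPM for let-7a-1-3p. let-7c-1-3p averaged 0.624 RPM.

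The 3 lowest arms were near the limit of detection. let-7a-2-3p was listed at 0 in 3 of 15 libraries and reached 0.372 RPM or 16 reads at most. let-7b-3p was listed at 0 in all 3 ob/ob libraries of 9 weeks and in wt replicates 3 and 4 of that age, and it had 1 read in each ob/ob library of 14 weeks against 1, 1, 3 and 4 reads in wt. let-7f-2-3p was listed at 0 in 5 libraries and had at most 5 reads, beside a let-7f-5p guide strand at 14251 RPM or more in every library. A miRNA entered the tests with 1 RPM or more in a number of libraries no smaller than the smaller group, a filter that let-7d-3p, let-7i-3p, let-7a-1-3p and let-7c-2-3p passed at both ages, 4 of the 8. let-7c-1-3p passed when the 15 libraries were fitted together, and let-7a-2-3p, let-7b-3p and let-7f-2-3p did not reach 1 RPM in any library.

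**Figure D1:**
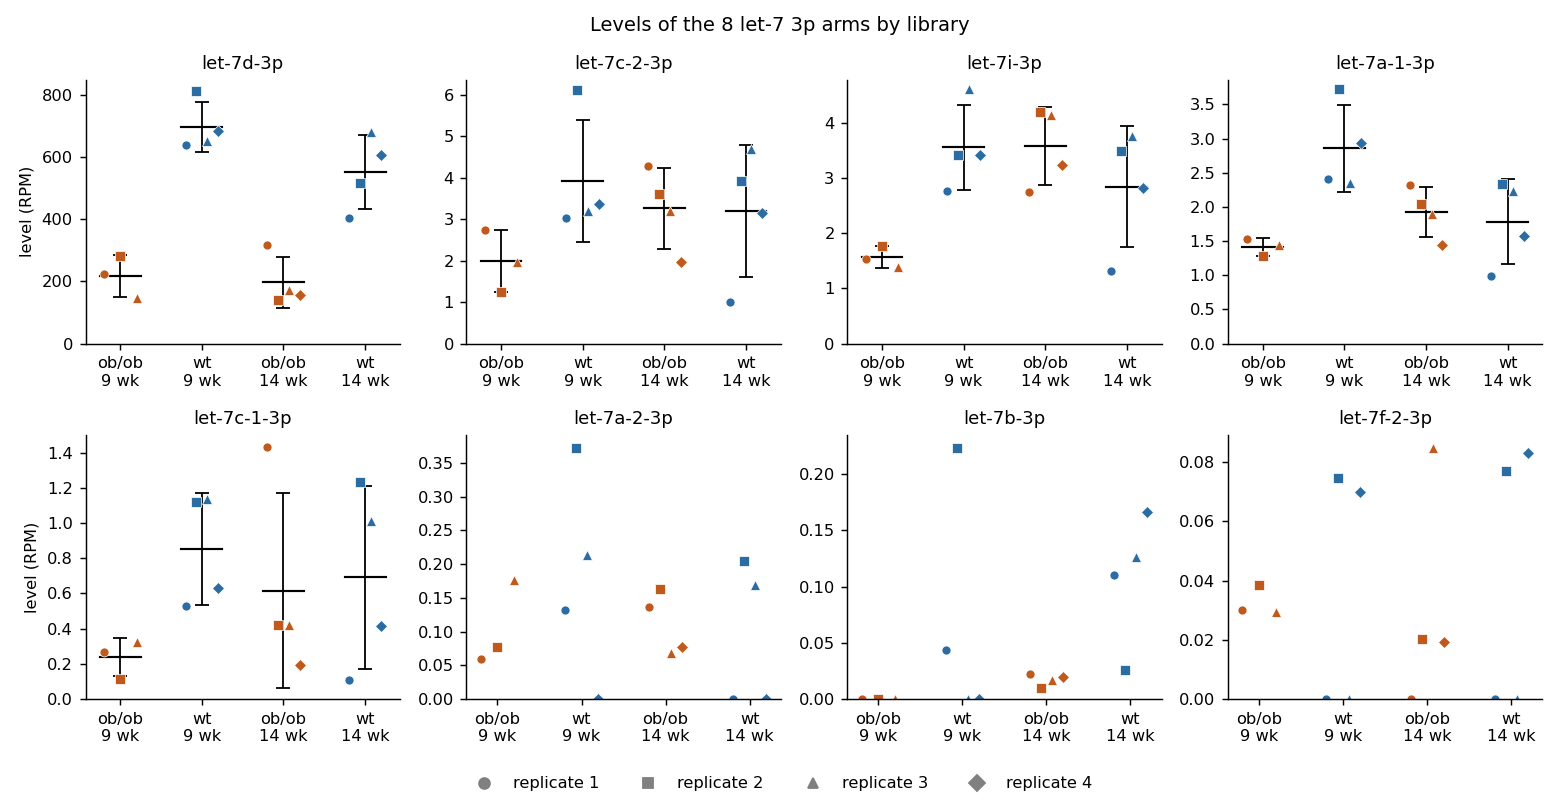
Level (RPM, linear axis from 0, own scale in each panel) of each of the 8 arms, with 1 point per library, ob/ob in orange and wt in blue, marker shape giving the replicate number. Lines and bars are mean ± SD (n = 3 for ob/ob at 9 weeks, n = 4 otherwise) for the 5 arms that were never listed at 0. let-7d-3p stays at or below 316.8 RPM in ob/ob and at or above 404.8 RPM in wt.

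Both arms of a hairpin are made in equal number, so the ratio of their reads shows how unequally they were recovered. All 8 hairpins had more 5p than 3p reads, as did 63 of the 86 hairpins with both arms listed. From the mean levels, let-7d had 29.0 3p reads per 100 5p reads, which ranked it 57th from the lowest of the 86 hairpins. The other 7 ranked from the 1st to the 20th. let-7i had 0.0795, let-7c-2 had 0.0535, let-7a-1 had 0.0355, let-7b had 0.0106, let-7c-1 had 0.0105, let-7a-2 had 0.00215 and let-7f-2 had 0.000141 reads of the 3p arm per 100 reads of the 5p arm. The listed let-7a-5p and let-7c-5p are each shared by 2 of these hairpins and let-7f-5p also comes from let-7f-1, so their ratios are lower than those of the single hairpins would be.

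**Figure D2:**
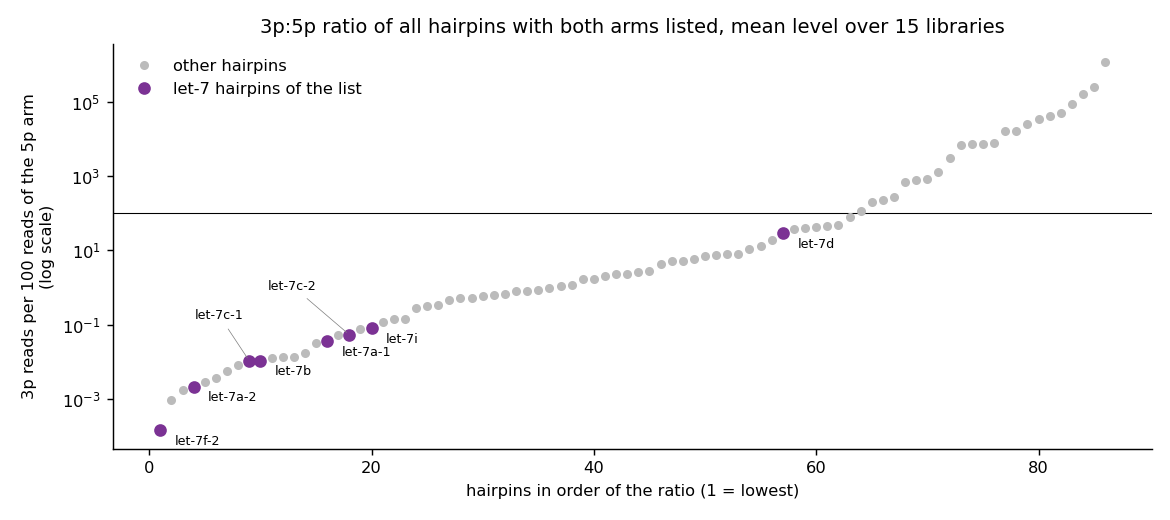
Reads of the 3p arm per 100 reads of the 5p arm (log axis, mean levels over 15 libraries) for the 86 hairpins with both arms listed, in order of that ratio, with the 8 let-7 hairpins in purple. The horizontal line marks equal arms. let-7d stands at 29.0 and the other 7 at 0.0795 or less.

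let-7a-1-3p and let-7c-2-3p, whose mature letters are the same, were nevertheless listed with different values. let-7c-2-3p had more reads than let-7a-1-3p in 13 of 15 libraries, equal reads in wt replicate 1 of 14 weeks, with 9 each, and fewer in ob/ob replicate 2 of 9 weeks, with 32 against 33. The ratio of let-7c-2-3p to let-7a-1-3p averaged 1.67 ± 0.212 (SD, n = 4) in ob/ob and 1.69 ± 0.495 (n = 4) in wt at 14 weeks, and 1.37 ± 0.407 (n = 3) in ob/ob and 1.35 ± 0.213 (n = 4) in wt at 9 weeks, so the genotypes differed by less than their spread. The sources used here do not give how reads matching both names were assigned. The values of these 2 arms are therefore uncertain as to their hairpin, and they are not independent of each other.

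**Figure D3:**
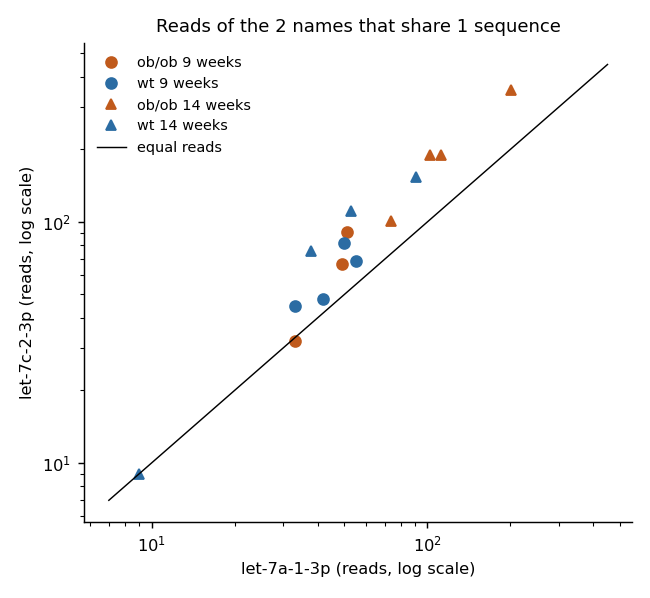
Reads of let-7c-2-3p against reads of let-7a-1-3p (both axes log scale), with 1 point per library, circles for 9 weeks and triangles for 14 weeks, ob/ob in orange and wt in blue. The line marks equal reads, and 13 of 15 points lie above it although the mature sequences are identical.

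The comparison of genotypes asks how these macrophages' miRNAs differ in obese mice. At 9 weeks, 3 of the 4 tested passenger arms were lower in ob/ob and none was higher. let-7d-3p averaged 217.7 ± 68.0 RPM in ob/ob (SD, n = 3) and 696.9 ± 80.1 RPM in wt (n = 4), let-7i-3p 1.57 ± 0.20 RPM in ob/ob and 3.56 ± 0.77 RPM in wt, and let-7a-1-3p 1.42 ± 0.13 RPM in ob/ob and 2.86 ± 0.64 RPM in wt. Across all 179 miRNAs tested, 37.4% passed, 5.03% as higher and 32.4% as lower in ob/ob, and the median log2 difference of all 179 was -0.51, against -0.89 for the 4 arms. Levels were compared with limma on log2(RPM + 0.5) with Benjamini-Hochberg adjustment over all miRNAs tested, at a threshold of 0.05. That scale understates the change of rare miRNAs.

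let-7d-3p was at 223.9, 282.4 and 146.9 RPM in ob/ob, against 638.9, 813.8, 652.2 and 682.8 RPM in wt at 9 weeks. The highest ob/ob library lay below the lowest wt library. The log2 difference was -1.72 ± 0.25 (SE, limma adjusted p = 0.00390), the 8th lowest of the 179. Its guide strand let-7d-5p was at 946.2, 1248 and 609.8 RPM in ob/ob, against 2518, 2361, 2072 and 1836 RPM in wt, and fell too, with a log2 difference of -1.28 ± 0.26 (limma adjusted p = 0.00711).

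let-7i-3p was at 1.53, 1.78 and 1.39 RPM in ob/ob, against 2.77, 3.43, 4.62 and 3.43 RPM in wt at 9 weeks. These groups did not overlap either, on 46 to 51 reads per ob/ob library and 46 to 65 reads per wt library. The log2 difference was -0.96 ± 0.23 (limma adjusted p = 0.0125). Its guide strand let-7i-5p, at 2940 to 3131 RPM in ob/ob and 3432 to 4638 RPM in wt, had a log2 difference of -0.39 ± 0.16 and did not pass (limma adjusted p = 0.0958).

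let-7a-1-3p was at 1.53, 1.27 and 1.45 RPM in ob/ob, against 2.41, 3.72, 2.35 and 2.94 RPM in wt at 9 weeks, again without overlap. Its log2 difference was -0.79 ± 0.23 (limma adjusted p = 0.0253). let-7c-2-3p, of the same sequence, was at 2.73, 1.24 and 1.98 RPM in ob/ob, against 3.03, 6.11, 3.20 and 3.36 RPM in wt. Its groups did not overlap, and it did not pass the test, at a log2 difference of -0.83 ± 0.32 (limma adjusted p = 0.0751). Groups did not overlap, with ob/ob lower, for 41.3% of the 179 miRNAs and for all 4 of these arms, and with ob/ob higher for 7.26% and none of the 4. let-7c-1-3p, below the filter at this age, was at 0.116 to 0.324 RPM in ob/ob and 0.527 to 1.14 RPM in wt, on 3 to 11 reads and 9 to 16 reads per library.

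Of these calls at 9 weeks, that of let-7d-3p held under each alternative tried. After median-ratio rescaling, which divides each library by the typical ratio of its miRNAs to their mean over libraries, the median log2 difference of all tested miRNAs moved by 0.50 to about 0, and 52.6% of the calls over all miRNAs were higher in ob/ob instead of 13.4%. let-7d-3p then stood at -1.21 (limma adjusted p = 0.0113), let-7i-3p at -0.55 (0.146) and let-7a-1-3p at -0.39 (0.241), so that let-7d-3p alone of the 4 passed. The call of let-7a-1-3p also ended without wt replicate 2 or 4, or without any 1 of the 3 ob/ob libraries, with limma adjusted p up to 0.0654. All libraries of 9 weeks were in lane 2.

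At 14 weeks let-7d-3p was again lower in ob/ob, at 196.6 ± 81.2 RPM in ob/ob and 552.2 ± 118.6 RPM in wt (SD, n = 4 each), and it was the only one of the 4 tested arms that passed. Over all 171 miRNAs tested 15.2% passed, 11.7% as higher and 3.51% as lower, and the median log2 difference was 0.20, against 0.12 for the 4 arms. let-7d-3p was at 316.8, 141.2, 172.9 and 155.4 RPM in ob/ob, against 404.8, 517.4, 679.7 and 607.0 RPM in wt. The groups did not overlap, as for 5.26% of the 171 miRNAs with ob/ob lower. The log2 difference was -1.54 ± 0.33 (limma adjusted p = 0.0119), the 7th lowest of the 171.

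Within sequencing lanes at 14 weeks, with 2 libraries per genotype each, the log2 difference of let-7d-3p was -1.11 in lane 1 (limma adjusted p = 0.657) and -1.97 in lane 2 (0.00802). In lane 1, 1 of 173 miRNAs passed at all. With lane as a term the call held (adjusted p = 0.0230), and after rescaling, which moved the median of all miRNAs by -0.20 and the share of calls that were higher in ob/ob to 54.2%, against 76.9% as deposited, the difference was -1.76 (0.00267). Without ob/ob replicate 3 it was -1.50 with a limma adjusted p of 0.05005, just above the threshold. Without wt replicate 1, which stood apart, the call held, and the alternatives that left out 1 library gave -1.79 to -1.41.

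The guide strand let-7d-5p was at 1311, 772.5, 1034 and 744.4 RPM in ob/ob, against 1059, 1791, 2153 and 1755 RPM in wt at 14 weeks. These values overlap through wt replicate 1, and the log2 difference of -0.80 ± 0.30 did not pass (limma adjusted p = 0.104). The other 3 passenger arms overlapped between genotypes. let-7i-3p was at 2.75, 4.20, 4.15 and 3.24 RPM in ob/ob, against 1.32, 3.49, 3.75 and 2.83 RPM in wt (log2 difference 0.34 ± 0.32, limma adjusted p = 0.530). let-7a-1-3p was at 2.32, 2.05, 1.90 and 1.44 RPM in ob/ob, against 0.991, 2.33, 2.24 and 1.58 RPM in wt (0.12 ± 0.27, adjusted p = 0.815). let-7c-2-3p was at 4.29, 3.60, 3.20 and 1.96 RPM in ob/ob, against 0.991, 3.92, 4.68 and 3.16 RPM in wt (0.13 ± 0.41, adjusted p = 0.858). Wt replicate 1 was the lowest wt library for all 3. Their log2 differences were 0.54, 0.38 and 0.79 in lane 1 and 0.15, -0.15 and -0.53 in lane 2, for let-7i-3p, let-7a-1-3p and let-7c-2-3p in that order. Rescaling also turned the sign of let-7a-1-3p and let-7c-2-3p, to -0.04 and -0.03, and none of these values passed.

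**Figure D4:**
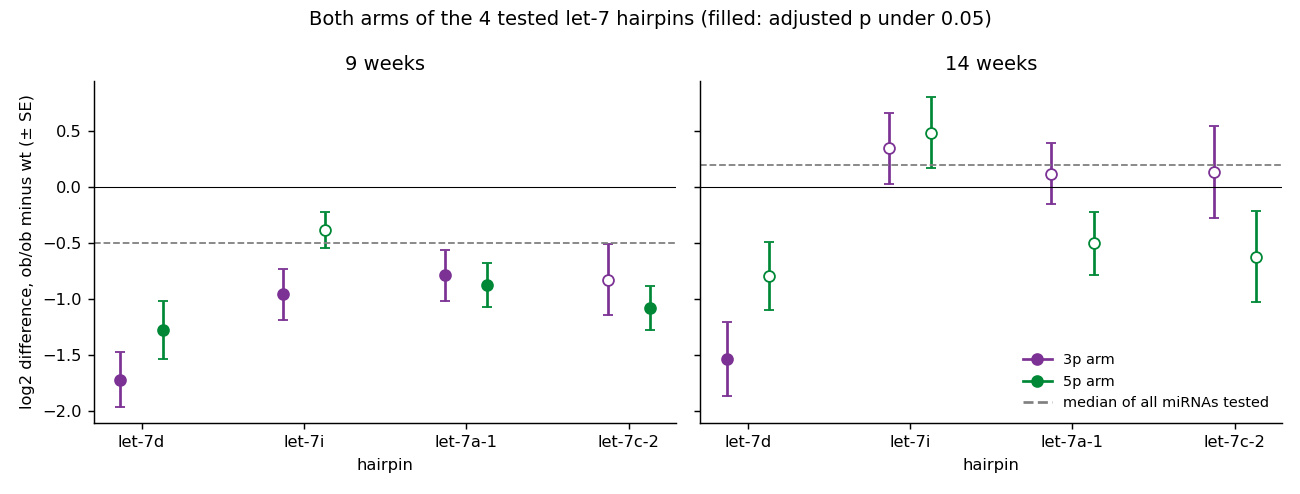
Log2 difference in level, ob/ob minus wt (± SE, limma on log2(RPM + 0.5)), of the 3p arm (purple) and 5p arm (green) of the 4 tested hairpins at 9 weeks (left) and 14 weeks (right), filled where the adjusted p is under 0.05. The dashed line is the median of all miRNAs tested, -0.51 at 9 weeks and 0.20 at 14 weeks. The let-7d 3p arm is the lowest point of both panels.

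The distance between let-7d-3p and the 3 rarer arms was compared within each library. These 6 comparisons were chosen after the values were seen, each with a two-sided exact permutation test, and they are given from the plain ratios of reads, which any scaling of a library leaves unchanged. At 14 weeks the log2 ratio of let-7d-3p to let-7i-3p was 5.72 ± 0.78 in ob/ob and 7.68 ± 0.44 in wt (SD, n = 4 each), so ob/ob minus wt was -1.96. With let-7a-1-3p in its place this gap between genotypes was -1.71, and with let-7c-2-3p it was -1.73. None of the 3 ratios overlapped between genotypes at 14 weeks, and each exact permutation p was 0.0286, the smallest that 4 against 4 libraries allow. The 3 ratios are not independent. All hold let-7d-3p, whose level alone did not overlap at either age, and let-7a-1-3p and let-7c-2-3p have the same sequence. How often other pairs of miRNAs separate in this way is not given here. Adjusted over the 6 by Benjamini-Hochberg, these p were 0.0571 and did not pass. The gaps were -1.78, -1.63 and -2.11 in lane 1 and -2.14, -1.78 and -1.35 in lane 2, for let-7i-3p, let-7a-1-3p and let-7c-2-3p in that order.

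At 9 weeks the gaps were -0.55, -0.73 and -0.73 in the same order, all 3 ratios overlapped between genotypes, and none passed, with exact permutation p of 0.114, 0.0571 and 0.257 (adjusted 0.137, 0.0857 and 0.257). With 0.5 RPM added to every level, which moves the rarer arms most, the gaps were -1.88, -1.66 and -1.67 at 14 weeks and -0.76, -0.93 and -0.89 at 9 weeks, and 4 of the 6 then passed, the 3 of 14 weeks and that of let-7a-1-3p at 9 weeks (exact permutation p adjusted over the 6, 0.0429 each). As the 6 were chosen after the values were seen and all hold let-7d-3p, these passes add no support for its lower level.

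The arm ratio compares the 2 arms of a hairpin inside a library. The fits used levels with 0.5 RPM added, so the ratio of a rare 3p arm still depends somewhat on how its library was scaled, whereas the reads per 100 reads are plain ratios. For let-7d the 3p arm was lower relative to its 5p arm in ob/ob at 14 weeks, and for let-7c-2 it was higher, so 2 of the 4 tested hairpins passed, 1 in each direction. Over all 41 hairpins tested 39.0% passed, 17.1% as higher and 22.0% as lower, so the count of 2 is near that of hairpins in general.

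let-7d had 24.2, 18.3, 16.7 and 20.9 3p reads per 100 5p reads in ob/ob, against 38.2, 28.9, 31.6 and 34.6 in wt at 14 weeks. The groups did not overlap, at 20.01 ± 3.26 in ob/ob and 33.3 ± 4.02 in wt (SD, n = 4 each). That held, with ob/ob lower, for 19.5% of the 41 hairpins tested and for 1 of the 4. The log2 difference of the ratio was -0.74 ± 0.18 (limma adjusted p = 0.0168). Within lanes it was -0.66 in lane 1 (adjusted p = 0.373) and -0.82 in lane 2 (0.0709), and neither passed. Without ob/ob replicate 2 or 3 it was -0.70 or -0.66 (0.0566 and 0.0631). At 9 weeks let-7d had 23.7, 22.6 and 24.1 3p reads per 100 5p reads in ob/ob, against 25.4, 34.5, 31.5 and 37.2 in wt, without overlap, which held with ob/ob lower for 23.3% of the 43 hairpins tested and for 2 of the 4, let-7d and let-7i. That difference, -0.44 ± 0.18, did not pass (adjusted p = 0.185), where 6.98% of the hairpins passed and none of the 4 let-7 hairpins did.

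let-7c-2 had 0.0652, 0.0700, 0.0701 and 0.0742 3p reads per 100 let-7c-5p reads in ob/ob, against 0.0299, 0.0523, 0.0474 and 0.0336 in wt at 14 weeks. All ob/ob libraries lay above all wt libraries. The log2 difference was 0.75 ± 0.18 (limma adjusted p = 0.0168), with 0.57 in lane 1 (0.392) and 0.94 in lane 2 (0.0619), and 0.76 without ob/ob replicate 2 or 3 (0.0552 and 0.0631). Set against the sum of all 8 let-7 guide strands in place of let-7c-5p, it was 0.51 and did not pass (0.170). let-7a-1, with the same 3p letters, had 0.0431, 0.0539, 0.0380 and 0.0368 in ob/ob against 0.0248, 0.0361, 0.0302 and 0.0188 per 100 let-7a-5p reads in wt, a log2 difference of 0.62 ± 0.22 (adjusted p = 0.0530). Its groups did not overlap and it did not pass, with 0.55 in lane 1 (0.392) and 0.69 in lane 2 (0.124), though it passed with lane as a term (0.0385). Groups did not overlap, with ob/ob higher, for 19.5% of the 41 hairpins.

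At 9 weeks the ratios of let-7c-2 and let-7a-1 overlapped between genotypes, with log2 differences of 0.25 ± 0.24 (limma adjusted p = 0.549) and 0.08 ± 0.27 (0.855), or 0.08 (0.841) and -0.11 (0.83) with no pseudocount. let-7i had 0.0521, 0.0567 and 0.0444 3p reads per 100 5p reads in ob/ob, against 0.0596, 0.0911, 0.135 and 0.0800 in wt at 9 weeks, a log2 difference of -0.57 ± 0.27 that did not pass (adjusted p = 0.207), nor did the -0.78 given with no pseudocount (0.0942). At 14 weeks it had 0.0818 ± 0.0148 in ob/ob and 0.0855 ± 0.0143 in wt (SD, n = 4 each), and the groups overlapped (adjusted p = 0.626).

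**Figure D5:**
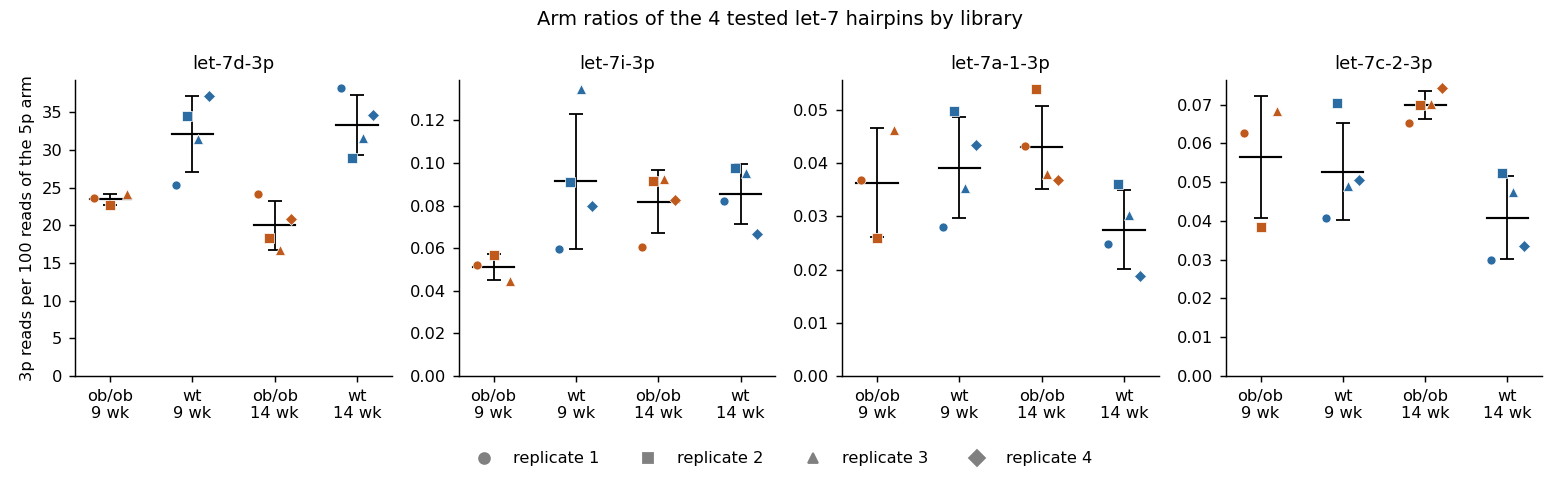
Reads of the 3p arm per 100 reads of the 5p arm (linear axis from 0, own scale in each panel) for the 4 tested let-7 hairpins, with 1 point per library, ob/ob in orange and wt in blue, and mean ± SD (n = 3 for ob/ob at 9 weeks, n = 4 otherwise). At 14 weeks let-7d lies between 16.7 and 24.2 in ob/ob and between 28.9 and 38.2 in wt, whereas let-7c-2 lies higher in ob/ob, at 0.0652 to 0.0742 against 0.0299 to 0.0523 in wt.

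Whether the ob/ob effect changed between the ages was tested as the interaction of genotype and age over the 15 libraries. No level of the 187 miRNAs and no ratio of the 46 hairpins passed by limma (0.0% each), the 5 tested passenger arms included. At an unadjusted p under 0.05, there were 48 of the 187 levels, 2 of them let-7i-3p and let-7a-1-3p, and 4 of the 46 ratios, none of them of these hairpins. The largest of the 5 level differences was that of let-7i-3p, 1.30 ± 0.40 (limma adjusted p = 0.132), followed by let-7c-2-3p at 0.96 ± 0.55 (0.271), let-7a-1-3p at 0.91 ± 0.35 (0.132), let-7c-1-3p at 0.77 ± 0.54 (0.360) and let-7d-3p at 0.18 ± 0.42 (0.820). The median over all 187 was 0.68, and rescaling moved it by -0.70. The 5 differences were then 0.73 for let-7i-3p, 0.38 for let-7c-2-3p, 0.35 for let-7a-1-3p, 0.49 for let-7c-1-3p and -0.54 for let-7d-3p, with limma adjusted p of 0.394 to 0.714. Within lane 2 alone, with 2 libraries per genotype at 14 weeks, they were 1.11, 0.30, 0.65, 0.30 and -0.25 in the same order, and none passed (0.205 to 0.846).

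Between the ages within a genotype none of the 5 tested passenger arms passed, in level or in ratio, and none did within lane 2 alone, which holds all libraries of 9 weeks and 2 per genotype of 14 weeks. The ages stand in separate tables, which cannot be told apart from age. In ob/ob 0.535% of levels and 2.17% of ratios passed over all features, and in wt 0.0% of both, with 16 of 187 levels and 3 of 46 ratios at an unadjusted p under 0.05. let-7i-3p averaged 3.59 ± 0.71 RPM in ob/ob at 14 weeks (SD, n = 4) and 1.57 ± 0.20 RPM in ob/ob at 9 weeks (n = 3), a log2 difference of 0.97 ± 0.29 (limma adjusted p = 0.112), and 1.02 within lane 2 (0.0625). It passed when wt replicate 1 of 14 weeks was left out of the shared estimate of the spread (0.00925). Over all miRNAs, leaving out single libraries gave 0 to 27 calls in this comparison, against 1 of 187 with none left out. let-7d-3p in ob/ob averaged 196.6 ± 81.2 RPM at 14 weeks and 217.7 ± 68.0 RPM at 9 weeks (-0.17 ± 0.31, adjusted p = 0.738). In wt it averaged 552.2 ± 118.6 RPM at 14 weeks and 696.9 ± 80.1 RPM at 9 weeks (-0.36 ± 0.28, adjusted p = 0.684).

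Other arms of the family gave the setting of these values. At 9 weeks 6 of the 8 listed let-7 guide strands were lower in ob/ob, those of let-7a, let-7b, let-7c, let-7d, let-7e and let-7f, with log2 differences of -1.28 to -0.88, and at 14 weeks none of the 8 passed. let-7e-3p, the next passenger arm of the family, fell at both ages, by 1.64 on the log2 scale at 9 weeks (limma adjusted p = 0.00485) and by 1.34 at 14 weeks (0.0352). The arms of miR-98 did not pass at either age. Of 7 arms of miR-99a, miR-100 and miR-125b, whose genes neighbour some let-7 genes, miR-100-3p and miR-125b-5p were lower at 9 weeks. None of the 7 passed at 14 weeks. Over all miRNAs tested, 32.4% were called lower in ob/ob at 9 weeks and 3.51% at 14 weeks.

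The miRNAs outside the family with profiles most like that of let-7d-3p were ranked by the root-mean-square difference of log2(RPM + 0.5) over the 15 libraries, after centring each miRNA, among 107 with a mean of at least 10 RPM. They were miR-1964-3p at 0.214, miR-574-3p at 0.256 and miR-423-3p at 0.284, where the middle candidate was at 0.968. miR-1964-3p was at 4.40 ± 1.99 RPM in ob/ob and 19.2 ± 2.73 RPM in wt at 9 weeks, and at 4.08 ± 1.53 RPM in ob/ob and 14.8 ± 2.63 RPM in wt at 14 weeks (SD). For let-7c-2-3p the nearest were miR-181d-5p at 0.213, miR-322-5p at 0.236 and miR-23b-3p at 0.276, where the middle candidate was at 0.551. These are descriptions over the same 15 libraries, which differed in depth and lane.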

How the data were processed

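Mouse Kupffer cell small RNA was sequenced in 15 libraries. Per the labels' protocols, small RNA was column-purified, libraries were made with a TruSeq small RNA kit, and sequencing was on a HiSeq 3000. bcl2fastq, cutadapt, GRCm38.p5 and mm10 are named by the submitters' processing notes. No aligner, counter or annotation is given in the sources used here. Deposited by the authors was 1 table per age, in a unit that is not stated and was taken as RPM. Every non-zero value was a whole multiple of 1 step within 0.1 reads. Any single scaling of a library would give this, so the unit is an assumption, and the depths rest on it. The step gave the depths and reads quoted, which gauge counting error only, and no count model was fitted.

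log2(RPM + 0.5) was fitted with limma 3.58.1 in R 4.3.3 (trend, robust), per age, and with all 15 libraries for interactions and ages. Log2 ratios of the 3p to the 5p arm were fitted without trend over all hairpins with both arms passing the filter, 1 RPM or more in a number of libraries no smaller than the smaller group. A 3p name was paired with its 5p name, or with that name without the copy number. Adjustment was Benjamini-Hochberg over all features, at 0.05. The fit was also run on simulated data, in which the miRNAs given a change were more abundant than let-7i-3p, let-7a-1-3p and let-7c-2-3p. That run does not bear on these arms, and its outcome is not used here. Single values used exact permutation tests by full enumeration, with adjustment in scipy 1.17.1.

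Sequences were matched by name to RefSeq (GRCm38.p6), which gave all 8 members, and positions to GENCODE vM21. The text names all 8 members with their 5p arms, other family or cluster arms past the threshold, and for the 2 most abundant members the 3 miRNAs of most similar profile. Alternatives were other pseudocounts or none, no filter, median-ratio rescaling over miRNAs with a mean of at least 5 RPM, a replicate block, lanes, another denominator and leaving out libraries. Members and lists were chosen with earlier results of these data known.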

Additional observations from a re-analysis of the deposited data

Results flagged for a closer look

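Of 48 groups of 4 libraries examined, each a level or ratio of 1 arm, 2 held a value far from the others, where chance gives about 1 in 20. let-7c-2-3p was at 6.11 RPM (82 reads) in wt replicate 2 at 9 weeks, against 3.03 to 3.36 RPM in the other 3 wt libraries. let-7c-1-3p had 0.0217 reads per 100 let-7c-5p reads (63 reads) in ob/ob replicate 1 at 14 weeks, against 0.00735 to 0.00928 in the other 3 ob/ob libraries.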

How the results depend on the processing

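The count of passenger arms past the threshold changed as follows. For levels at 9 weeks it was 3, and 1 after median-ratio rescaling or with the replicate block, and 2 to 3 without single libraries. For levels at 14 weeks it was 1, and 0 in lane 1 alone or with the block (let-7d-3p, adjusted p = 0.0565), and 0 to 1 without single libraries. For levels, 14 minus 9 weeks in ob/ob, it was 0, and 0 to 1 without single libraries, where calls over all miRNAs ranged from 0 to 27. For ratios at 9 weeks it was 0, and 2 without the filter, let-7b and let-7f-2, whose 3p arms had 0 to 3 reads per library at that age and whose ratios then follow the pseudocount and the 5p arm. For ratios at 14 weeks it was 2, 1 against the summed guide strands, 0 in either lane alone, and 0 to 3 without single libraries. Chosen after seeing the data, ratios with no pseudocount (hairpins with a 0 left out) and lane 2 alone for the ages left each of these counts as it was, and the ratios of let-7d and let-7c-2 at 14 weeks were then -0.74 (0.0248) and 0.81 (0.0237) with no pseudocount. No call changed direction. Without a fixed pairing in the labels, same-numbered libraries shared only a number, their deviations correlating at -0.142 to 0.278 at 9 weeks and -0.241 to 0.202 at 14 weeks. With the replicate block, let-7i-3p and let-7a-1-3p at 9 weeks had adjusted p of 0.123 and 0.199, and the ratio of let-7a-1 at 14 weeks passed (0.0290). Over all miRNAs, calls at 9 weeks numbered 67, 38 rescaled and 32 with the block. At 14 weeks they numbered 26, 48 rescaled, 1 in lane 1, 51 in lane 2, 46 without wt replicate 1, 15 without wt replicate 3 and 13 without ob/ob replicate 3. Called ratios at 9 weeks numbered 3, 6 with a pseudocount of 1, 9 with none, 18 without the filter, 1 with the block and 0 to 7 without single libraries, and at 14 weeks 16, 0 in lane 1, 4 in lane 2, and 4, 0 and 9 without ob/ob replicates 2, 3 and 4. The causes were not tested. let-7a-2-3p, let-7b-3p and let-7f-2-3p had at most 16 reads in a library and were tested only without the filter.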
